A study of Mus musculus with 6 samples.

Results

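The 9 genes described here encode the muscle acetylcholine receptor and the proteins that gather it at the neuromuscular junction: the receptor subunits Chrna1, Chrnb1, Chrnd and Chrng, the agrin receptor complex Musk, Lrp4 and Dok7, the scaffold Rapsn, and the esterase Ache. They were taken by gene symbol, and all 9 had 1 row each in a table of 14515 genes from 6 mouse muscle stem cell RNA libraries. The libraries form 3 groups of 2, labelled wild type (wt), mdx, and mdx/Ripk3mKO. In mdx mice a mutated dystrophin gene models Duchenne muscular dystrophy. The kinase Ripk3 drives necroptosis, a lytic and inflammatory way for cells to die. The meaning of mKO, the ages of the mice and the number of animals behind each group are not given in the sources used here. The p-values therefore reflect only how far these libraries spread, and that spread may be technical. The sources differ on the cells. The sample labels name sorted quiescent satellite cells, with 10000 to 20000 cells per library, whereas the series text tells of wild-type activated cells kept for 72 hours beneath a transwell that held cells of the 3 genotypes. If the latter holds, the genotype is that of the upper cells, so groups are called by their labels.

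At a junction, acetylcholine released by the motor nerve opens a channel built of several subunits. The fetal muscle form holds the alpha, beta, delta and gamma subunits, and in innervated adult muscle the epsilon subunit takes the place of gamma. Agrin from the nerve binds Lrp4, which activates the kinase MuSK. Dok7 acts inside the cell as an adaptor and activator of MuSK, rapsyn ties the receptors into clusters, and acetylcholinesterase ends the signal. Differentiating myoblasts in culture make the receptor without a nerve, and the muscle regulatory factors MyoD and myogenin bind E-boxes, the sequence CANNTG, in promoters of subunit genes.

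The labelled cell type was checked against its markers. Myog, a factor of differentiating myoblasts, lay between 1300 and 1700 CPM (its scaled count as CPM of the library total), the fusion factor Mymk between 500 and 602, and Pax7, the defining factor of satellite cells, between 84.6 and 103. The quiescence marker Cd34 lay between 0.0951 and 0.582 CPM. By these markers the libraries hold differentiating myoblasts, with some Pax7 transcript, and the label of quiescent cells is not borne out. Of 8 motor neuron and nerve terminal markers 1 had a value, Isl1, at 0.388 to 1.11 CPM. Of 7 Schwann cell markers 3 had a value, at a summed 9.05 to 11.3 CPM, and the defining Sox10 was not among them. Ripk3 was at 45 and 32 scaled counts (wt), 23 and 36 (mdx), and 17 and 33 (mdx/Ripk3mKO), and Dmd at 324 and 432, 531 and 692, and 474 and 294, so neither gene checked the labels. Library 1 of mdx/Ripk3mKO stood apart, with 6918 scaled counts of Xist against 164 to 666 elsewhere. The Y-linked genes Ddx3y, at 373 against 1543 to 1785, and Uty, at 167 against 641 to 757, were lower there. Whether the sex of the cells differed within this group was not tested. Comparisons of members with its group are also given without it, as are those of some list genes.

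The upstream sequences of Chrna1, Chrng and Musk are printed because Chrna1 and Chrng have the highest levels per kilobase, Musk is one of the 2 members lowest in both mdx libraries, and all 3 carry the myogenic form of the E-box, CAGCTG. Each run gives the 250 bases before the start site, 5′ to 3′ on the strand of the gene, from RefSeq on GRCm38.p6, the assembly behind mm10. Capitals mark every CANNTG.
Chrna1, chr2:73580339-73580588, minus strand: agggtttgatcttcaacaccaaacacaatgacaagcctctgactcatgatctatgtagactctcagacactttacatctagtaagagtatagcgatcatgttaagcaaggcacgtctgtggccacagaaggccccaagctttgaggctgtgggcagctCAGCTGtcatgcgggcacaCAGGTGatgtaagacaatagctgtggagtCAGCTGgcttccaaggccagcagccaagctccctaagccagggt
Chrng, chr1:87205561-87205810, plus strand: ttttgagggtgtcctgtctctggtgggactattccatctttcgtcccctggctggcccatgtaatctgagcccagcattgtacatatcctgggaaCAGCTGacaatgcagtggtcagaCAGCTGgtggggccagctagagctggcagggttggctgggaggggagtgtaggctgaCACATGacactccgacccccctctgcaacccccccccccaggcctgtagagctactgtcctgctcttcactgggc
Musk, chr4:58285712-58285961, plus strand: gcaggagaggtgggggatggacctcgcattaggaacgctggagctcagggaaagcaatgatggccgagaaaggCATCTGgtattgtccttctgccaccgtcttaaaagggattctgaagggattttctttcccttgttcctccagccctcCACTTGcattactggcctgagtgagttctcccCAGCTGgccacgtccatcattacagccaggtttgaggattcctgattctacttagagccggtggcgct

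Each of these 3 windows held 3 E-boxes, as did that of Chrnb1. The first window of Dok7 and that of Ache held 1, and the second window of Dok7 held 0. CAGCTG, which is one kind of CANNTG, occurred 2 times upstream of Chrna1 and of Chrng, 1 time upstream of Musk, and not in the windows of Chrnb1, Dok7 and Ache. Among 32851 promoter windows of the same length, searched on both strands, 12.213% held 3 or more E-boxes, 13.001% held CAGCTG and 1.26% held it 2 or more times. The N-box core CCGGAA, the site of the ETS factor GABP in junction genes, was in 12.03% of all windows and in none of the members' windows. Promoter sequences were matched for 6 of the 9 members, the others being Chrnd, Lrp4 and Rapsn. A match is a run of letters and was not tested for binding.

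The receptor subunits were among the abundant transcripts of these cells. Chrna1 (ENSMUSG00000027107, mm10 chromosome 2, 73563215 to 73580338) encodes the alpha subunit, which carries most of the transmitter binding site. It was read at 44645 and 43854 scaled counts (wt), 44067 and 41161 (mdx), and 47764 and 44328 (mdx/Ripk3mKO). The 3 groups lay close together, with a coefficient of variation of 4.76% over the 6 libraries. Per kilobase of annotated exon, Chrna1 had a mean level of 10100 scaled counts, rank 39 among 14502 genes with a length, whose median was 91.3.

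Chrng (ENSMUSG00000026253, chromosome 1, 87205811 to 87212694), the fetal gamma subunit, was at 7108 and 6949 scaled counts (wt), 7128 and 6594 (mdx), and 8008 and 6534 (mdx/Ripk3mKO). The mdx/Ripk3mKO libraries held both its highest and its lowest value, so that group enclosed the other 4 libraries. Chrnd (ENSMUSG00000026251, chromosome 1, 87190637 to 87200070), the delta subunit and the neighbour of Chrng on the same strand, was at 4774 and 4358 (wt), 4576 and 4308 (mdx), and 4874 and 4581 (mdx/Ripk3mKO). Chrnb1 (ENSMUSG00000041189, chromosome 11, 69784036 to 69795943), the beta subunit, was at 3254 and 3531 (wt), 3484 and 3443 (mdx), and 3333 and 3455 (mdx/Ripk3mKO). It varied least of the 9 members, by 3.02%, and its wt libraries enclosed the other 4. The adult epsilon subunit gene, Chrne, was not analysed here.

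Per kilobase the levels followed one order in which Chrna1 stood well above the other subunits. Chrna1 was 5.66 to 6.44 times the level of Chrng in the 6 libraries, 7.01 to 7.54 times that of Chrnd and 6.9 to 8.27 times that of Chrnb1. Chrng had a mean level of 1690 scaled counts per kilobase, Chrnd 1390 and Chrnb1 1350. Chrng exceeded Chrnd in all 6 libraries, by 1.13 to 1.3 times, while Chrnd and Chrnb1 overlapped, with Chrnd higher in 4 of 6. These ratios are of transcripts, not of protein. Below the subunits came Rapsn at 1260 scaled counts per kilobase, Musk at 976, Dok7 at 748 and Lrp4 at 405, each apart from the next in all 6 libraries. Rapsn and Chrnb1 overlapped, with Chrnb1 higher in 4 of 6. With the longest transcript as the length, Chrnb1 came before Chrnd, and Dok7, at 1150, before Musk, at 1080. The order within these 2 pairs therefore depends on the length used.

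**Figure D1:**
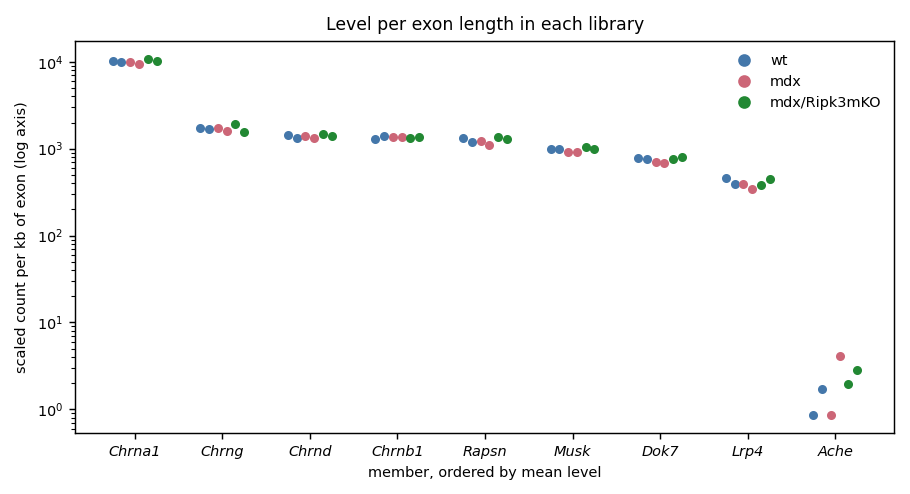
Level of each member in each of the 6 libraries, as scaled count per kilobase of annotated exon on a log axis, one point per library and colours for the 3 labelled groups. Chrna1 lies near 10100, the other 7 abundant members between 346 and 1920, and Ache between 0.865 and 4.11.

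The agrin receptor genes were abundant as well, and in 2 of them both mdx libraries were the lowest of the 6. Musk (ENSMUSG00000057280, chromosome 4, 58285960 to 58374303), the receptor kinase, was at 3752 and 3732 scaled counts (wt), 3476 and 3463 (mdx), and 3923 and 3755 (mdx/Ripk3mKO). Its mdx libraries differed from each other by 0.01 on the log2 scale and lay below all others. Dok7 (ENSMUSG00000044716, chromosome 5, 35056766 to 35087839) was at 3346 and 3243 (wt), 3005 and 2948 (mdx), and 3246 and 3398 (mdx/Ripk3mKO), again with both mdx libraries lowest. Among all 14077 tested genes both mdx libraries lay below the other 4 in 10.9%.

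Lrp4 (ENSMUSG00000027253, chromosome 2, 91457511 to 91513779), the agrin receptor, was at 4802 and 4175 (wt), 4138 and 3635 (mdx), and 4047 and 4725 (mdx/Ripk3mKO). It varied by 10.3%, the most of the 8 abundant members, and its mdx values lay below wt but overlapped mdx/Ripk3mKO. Rapsn (ENSMUSG00000002104, chromosome 2, 91035620 to 91045729) was at 2377 and 2150 (wt), 2232 and 1992 (mdx), and 2491 and 2337 (mdx/Ripk3mKO). Its mdx values lay below mdx/Ripk3mKO and overlapped wt. Rapsn shares 4 bases of exon with Gm13778 on the opposite strand, which had a mean of 35.5 scaled counts. The strand setting of the counting is unknown here.

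Ache, which encodes acetylcholinesterase, was close to the limit of detection. Ache (ENSMUSG00000023328, chromosome 5, 137288277 to 137294466) had 4 and 8 scaled counts (wt), 4 and 19 (mdx), and 9 and 13 (mdx/Ripk3mKO). The mdx libraries held both its highest value and one of its 2 lowest. It entered the test through mdx library 2 and mdx/Ripk3mKO library 2 alone, the only ones to reach 10. Its mean level of 2.05 scaled counts per kilobase had rank 14104 among the 14502 genes, and Lrp4, the next member up, was at least 84.2 times higher in every library. Colq, whose collagen tail anchors the enzyme in the synaptic basal lamina, was at 30 and 44 (wt), 73 and 56 (mdx), and 42 and 19 (mdx/Ripk3mKO). The gene of the related butyrylcholinesterase, Bche, was more abundant than Ache, at 310 and 335, 359 and 336, and 344 and 289 scaled counts in the same order of groups.

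**Figure D2:**
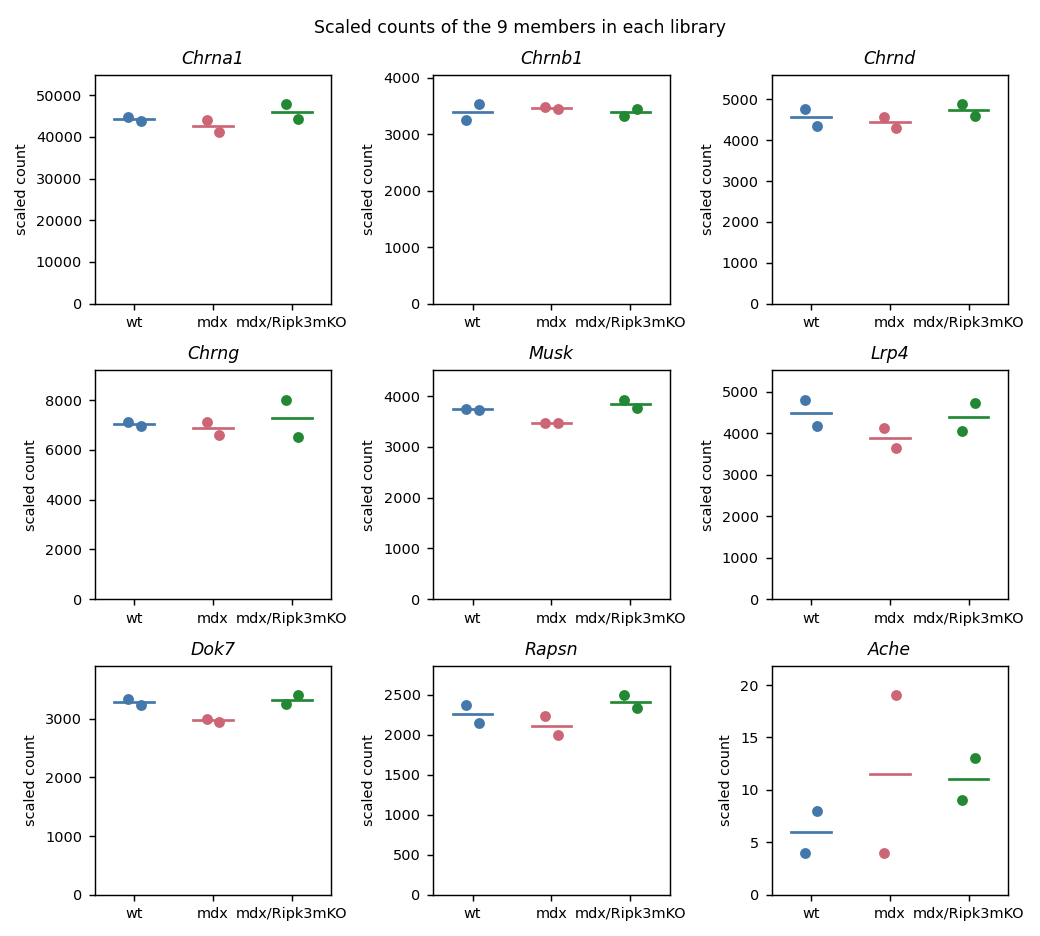
Scaled counts of the 9 members, one panel per gene with the vertical axis from 0, one point per library and a bar at the mean of each labelled group of 2. The abundant members are nearly level across groups, with the mdx points of Musk and Dok7 lowest, while Ache runs from 4 to 19.

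No member passed the threshold between the libraries labelled mdx and wt, where 0.0071% of all tested genes were called (limma, adjusted p under 0.05). Of the members 7 of 9 lay below 0 and 2 above, with a median log2 difference of -0.06 against 0.00 over all genes, of which 50.9% lay below 0. Dok7 was at -0.15 ± 0.05 (moderated standard error, 95% interval -0.26 to -0.03, limma, adjusted p = 0.65), Musk at -0.11 ± 0.05 (-0.22 to 0.00, adjusted p = 0.78), Lrp4 at -0.21 ± 0.10 (-0.45 to 0.03, adjusted p = 0.809) and Rapsn at -0.10 ± 0.07 (-0.25 to 0.05, adjusted p = 0.845). The groups did not overlap for Dok7, Musk and Lrp4, all lower in mdx, which is 3 of 9 where 18.3% of all genes were so placed. Leaving out wt library 1 put Lrp4 at -0.11 and Rapsn at -0.03, and leaving out mdx library 2 put them at -0.11 and -0.02. Dok7 alone had an unadjusted p under 0.05, where 3.02% of genes did in that direction.

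The receptor subunits lay nearer to 0 in mdx against wt. Chrna1 was at -0.06 ± 0.05 (95% interval -0.17 to 0.06), Chrnd at -0.04 ± 0.06, Chrng at -0.04 ± 0.09 and Chrnb1 at 0.03 ± 0.06, with adjusted p between 0.889 and 0.974 (limma), and all 4 overlapped between the groups. The intervals of the 4 subunits ran from -0.24 to 0.16 at their widest, for Chrng. Chrnd was at 0.03 without wt library 1, Chrnb1 at -0.03 without it, and Chrng at 0.02 without mdx library 2, so these signs rest on single libraries. Ache was at 0.58 with an interval from -0.76 to 1.92, too wide to place it.

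Of the members in mdx/Ripk3mKO against mdx, 8 of 9 lay above 0, as did 49.2% of all tested genes, and none passed the threshold, where 0.206% were called. The median of the members was 0.15, against 0.00 over all genes. The 8 include Ache, whose group means were 11 scaled counts in mdx/Ripk3mKO and 11.5 in mdx, so its sign above 0 holds on the log2 scale alone, and it was at -0.76 without mdx library 1. The summed satellite cell and myoblast markers, 10 of 11 with a value, were at 6280 to 6620 CPM in mdx/Ripk3mKO, 5820 to 6250 in mdx and 5990 to 6510 in wt, and their part in the members' values was not tested. The mdx libraries enter this comparison and the previous one, and low values there move a gene down in the first and up in the second. Rapsn was at 0.19 ± 0.07 (95% interval 0.05 to 0.34, limma, adjusted p = 0.3), Dok7 at 0.16 ± 0.05 (0.04 to 0.27, adjusted p = 0.271), Musk at 0.15 ± 0.05 (0.04 to 0.26, adjusted p = 0.296) and Chrna1 at 0.11 ± 0.05 (0.00 to 0.22, adjusted p = 0.425). These 4 had an unadjusted p under 0.05, as did 5.77% of all tested genes in that direction. The groups did not overlap, with mdx/Ripk3mKO higher, for these 4 and for Chrnd, at 0.09 ± 0.06, against 21% of all genes. After a correction for GC content and exon length, chosen after seeing the data, Dok7 was at 0.05, Rapsn at 0.10, Chrnd at 0.02 and Chrng at 0.03. Chrna1 and Musk were then at 0.12, Lrp4 at 0.14, Ache at 0.15 and Chrnb1 at -0.06, with a median of 0.10 over the members.

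The remaining members overlapped between mdx/Ripk3mKO and mdx. Lrp4 was at 0.17 ± 0.10 (95% interval -0.07 to 0.41), Chrng at 0.08 ± 0.09, Chrnb1 at -0.03 ± 0.06 and Ache at 0.24 ± 0.62. Without mdx/Ripk3mKO library 1, Dok7 was at 0.19, Rapsn at 0.15, Lrp4 at 0.28, Musk at 0.11, Chrna1 at 0.06 and Chrnd at 0.05, while Chrng turned to -0.07. Then 2 of 9 members lay below 0, the median was 0.11 and none passed, where 278 genes were called. Without mdx library 2 the median was 0.07 over the 8 members tested. The position of Chrng in mdx/Ripk3mKO therefore rests on that library, which held its highest value, 8008.

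**Figure D3:**
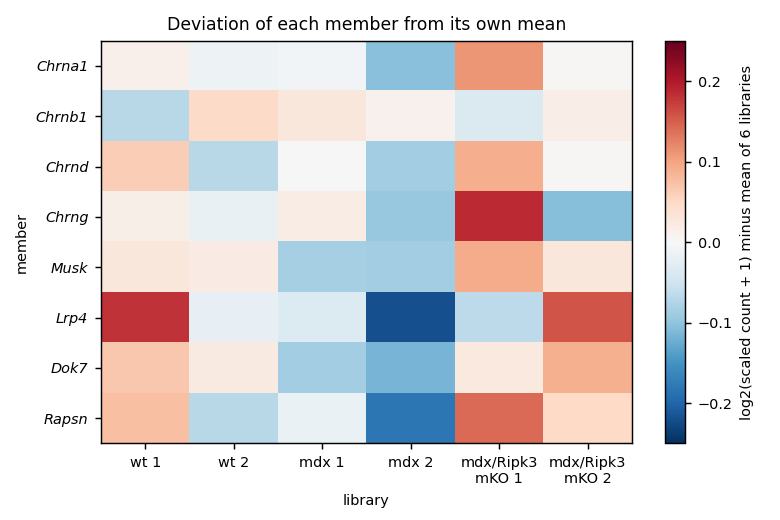
Deviation of the 8 abundant members from their own mean over the 6 libraries, on the log2(scaled count + 1) scale, one row per member and one column per library, red above and blue below the mean. The mdx 2 column is below the mean in every row but Chrnb1, from -0.22 for Lrp4 to 0.01 for Chrnb1, and Musk and Dok7 are the rows with both mdx columns lowest.

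The deviations show that mdx library 2 was the lowest library for Chrna1, Chrnd, Musk, Lrp4, Dok7 and Rapsn, while library 1 of mdx lay near the mean of Chrna1, at -0.01, and of Rapsn, at -0.02. Without mdx library 2 the median of the members against wt was -0.01, with 5 of 8 tested below 0, and without mdx library 1 it was -0.10, with 7 of 9 below 0. Dok7 stayed between -0.17 and -0.09 and Musk between -0.11 and -0.10 in every alternative tried.

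The libraries labelled mdx/Ripk3mKO and wt were close for every abundant member. No gene of the 14077 passed the threshold (0% called by limma, and 3.32% with an unadjusted p under 0.05). Of the members 8 of 9 lay above 0, against 50.5% of genes, with a median of 0.04. Without mdx/Ripk3mKO library 2 the median was 0.08 over 8 members tested, 3 of them below 0, and 20 genes were called. Without library 1 of that group the median was 0.03, and Chrng was at -0.11 and Lrp4 at 0.08. Rapsn was at 0.09 ± 0.07 (95% interval -0.05 to 0.24), Chrna1 at 0.06 ± 0.05 (-0.05 to 0.17), Musk at 0.04 ± 0.05 (-0.07 to 0.15), Dok7 at 0.01 ± 0.05 (-0.10 to 0.13), Chrnb1 at 0.00 ± 0.06 (-0.12 to 0.12) and Lrp4 at -0.03 ± 0.10 (-0.27 to 0.20). All 9 had an adjusted p of 1 by limma. Of the 8 abundant members Musk alone had groups that did not overlap, with a gap between 3755 and 3752 scaled counts, where 14.4% of genes were higher without overlap. Ache, admitted to the test by groups other than wt, had a gap between 9 and 8. An F-test over the 3 labelled groups gave unadjusted p of 0.0174 for Dok7, 0.0343 for Musk and 0.0438 for Rapsn, where 7.87% of genes were under 0.05, and adjusted p of 0.521, 0.595 and 0.625 (limma), where 0.0781% of genes passed. Without mdx/Ripk3mKO library 1 the unadjusted p was 0.0129 for Dok7, 0.0831 for Musk, 0.189 for Rapsn and 0.0224 for Lrp4.

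**Figure D4:**
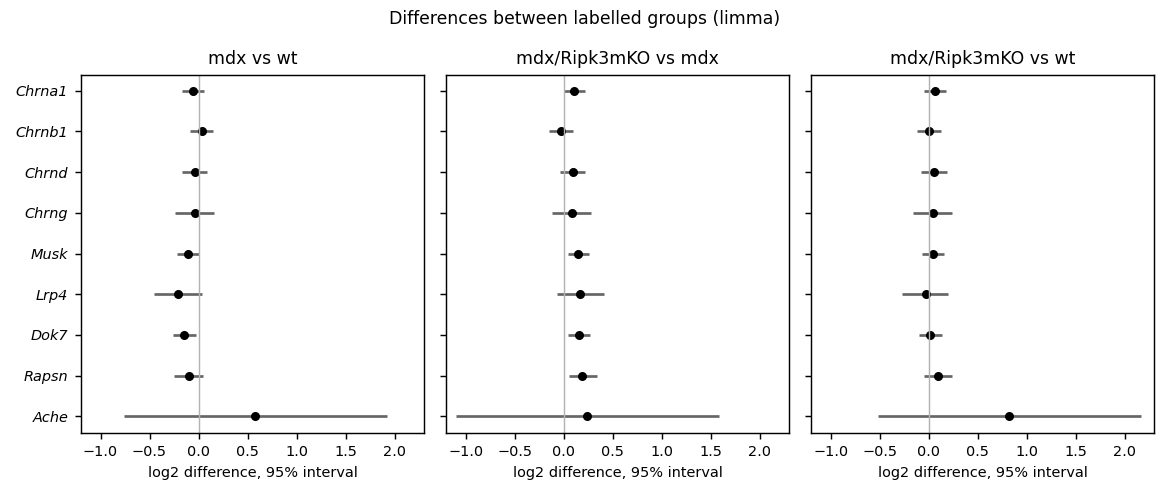
Log2 difference of each member in the 3 comparisons with its 95% interval (limma, 2 libraries per group). The intervals of the 8 abundant members stay between -0.45 and 0.41, and that of Ache runs from -1.10 to 2.16 over the 3 panels.

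Other genes of the junction were read from lists of its known parts. Neuronal nicotinic and muscarinic receptor genes were scarce: 3 of 16 were tested, led by the alpha7 subunit Chrna7 at 29 to 34 scaled counts, and none passed in any comparison. Of the agrin, MuSK and neuregulin list, which holds 4 of the members, 34 of 35 genes were tested and none passed. Of these 34, 23 lay above 0 in mdx/Ripk3mKO against mdx, with a median of 0.03. The adaptor gene Sorbs2 was nearest to the threshold there, at 1215 and 1042 scaled counts against 1566 and 1376 (-0.38 ± 0.08, limma, adjusted p = 0.0827). Sorbs2 was at -0.49 without mdx/Ripk3mKO library 1, -0.27 without library 2, and -0.24 after the correction for GC content and exon length. The most abundant genes of the list, without regard to length, were the cytoskeletal linkers Macf1, with a mean of 35436.7 scaled counts, and Plec, with 24573.7.

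The postsynaptic scaffold list holds genes that tie the cluster to the cytoskeleton, and also the channel genes Scn4a and Kcnj2 and the adhesion gene Ncam1. All 12 of 12 lay above 0 in mdx against wt, with a median of 0.12, where 49% of all genes did. All 12 lay below 0 in mdx/Ripk3mKO against mdx, with a median of -0.11, where 50.7% of all genes did, and none passed the threshold in either comparison. Both comparisons use the same mdx libraries, so high values there move a gene up in one and down in the other. In mdx/Ripk3mKO against wt, which leaves mdx out, 3 lay above 0 and 9 below, with a median of -0.02. Leaving out 1 library gave 9 to 12 above 0 in mdx against wt and 9 to 12 below 0 in mdx/Ripk3mKO against mdx. Without mdx/Ripk3mKO library 1, 10 lay below 0 in the second (median -0.18), with Scn4a at -0.51 and Kcnj2 at -1.22. Without library 2 of that group Scn4a was at -0.23 and Kcnj2 at -0.47. The muscle sodium channel Scn4a was at 587 and 645 scaled counts (wt), 754 and 744 (mdx), and 639 and 527 (mdx/Ripk3mKO) (0.28 ± 0.09, adjusted p = 0.586, and -0.37 ± 0.09, adjusted p = 0.136, limma). Ankyrin G (Ank3) was at 0.19 ± 0.07 in mdx against wt, and the inward rectifier potassium channel gene Kcnj2 at -0.84 ± 0.28 in mdx/Ripk3mKO against mdx. The difference between this list and the members was not tested. Mature myofibre markers, 5 of 6 with a value, summed to 921 to 1080 CPM in wt, 1490 to 1640 in mdx and 713 to 1230 in mdx/Ripk3mKO. Myh1 made up most of this sum, at 567 to 1350 CPM over the 6 libraries. Ckm lay between 68.4 and 125 CPM and Mb between 64.9 and 130, with Myh4 and Myh2 lower. Pvalb was not analysed here. Pericyte and smooth muscle markers, 3 of 5 with a value, Myh11 not among them, summed to 133 to 140 CPM in wt, 152 to 176 in mdx and 124 to 150 in mdx/Ripk3mKO. Notch3 made up most of this sum, at 93.9 to 124 CPM over the 6 libraries. Abcc9 lay between 29.6 and 50 CPM and Rgs5 only between 0.53 and 1.31. The part of either marker set in these values was not tested, and in bulk RNA fewer cells of a type and less RNA per cell cannot be told apart.

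Of the synaptic basal lamina list, which holds the member Ache, 13 of 17 genes were tested and none passed. In mdx against wt 9 lay above 0 (median 0.08), as did 49% of all genes. Colq was at 0.80 ± 0.35 there and dystroglycan (Dag1) at 0.12 ± 0.06. In mdx/Ripk3mKO against mdx 9 lay below 0 (median -0.08), as did 50.7% of all genes. There Colq was at -1.15 ± 0.35 (limma, adjusted p = 0.242) and nidogen 2 (Nid2) at -0.22 ± 0.07 (adjusted p = 0.251). Colq was at -1.70 when mdx/Ripk3mKO library 1 was left out and at -0.59 without library 2. The 5 glycosylation genes mutated in congenital myasthenia had medians of -0.03 and -0.01 in these comparisons, with 5 of 5 below 0 in the first and 3 of 5 in the second, and none passed. The second median was 0.08 with mdx/Ripk3mKO library 1 left out. Alg14 was at -0.12 ± 0.08 in mdx against wt and Dpagt1 at 0.11 ± 0.07 in mdx/Ripk3mKO against mdx.

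**Figure D5:**
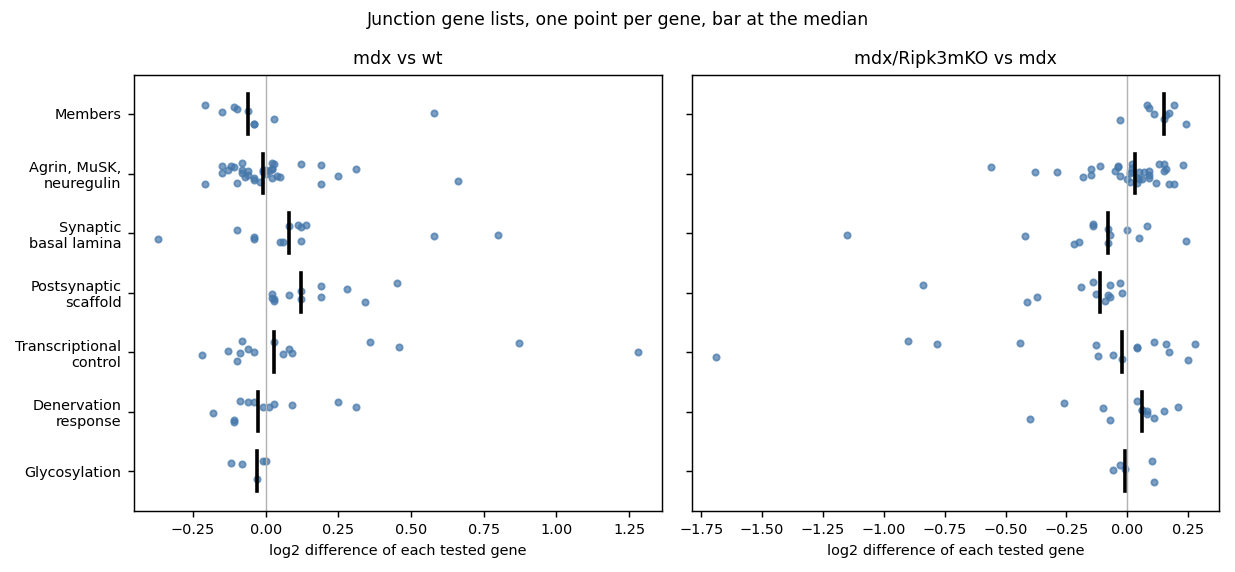
Log2 differences of each tested gene in the members and 6 lists of junction genes, for mdx against wt and mdx/Ripk3mKO against mdx, with a bar at each median. The points of the postsynaptic scaffold list are all above 0 in the first panel and all below 0 in the second, whereas 7 of 9 members are below 0 in the first and 8 of 9 above 0 in the second. Both panels use the same mdx libraries.

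Among regulators of junction genes 15 of 17 were tested, and 1 passed, in mdx/Ripk3mKO against mdx, where 0.206% of all genes did. Egr3 is an immediate early transcription factor whose mean log2 level was highest in mdx. It was at 1.28 ± 0.22 in mdx against wt (limma, adjusted p = 0.19) and at -0.41 ± 0.22 in mdx/Ripk3mKO against wt. In mdx/Ripk3mKO against mdx it was at -1.69 ± 0.22 (limma, adjusted p = 0.0127), with 156 and 148 scaled counts in mdx against 46 and 47. The call held without mdx/Ripk3mKO library 1 (-1.67, adjusted p = 0.005), but not without mdx library 2 (adjusted p = 0.0843) or without variance trend and robust fitting (adjusted p = 0.406). Myod1, which binds the E-box, was at 23226 and 21120 (wt), 19459 and 18636 (mdx), and 22696 and 23595 (mdx/Ripk3mKO), so that its mdx libraries were the lowest. It was at -0.22 ± 0.05 in mdx against wt and 0.28 ± 0.05 in mdx/Ripk3mKO against mdx (adjusted p = 0.418 and 0.0528). The latter was 0.31 without mdx/Ripk3mKO library 1, 0.25 without library 2, and 0.19 after the correction for GC content and exon length. Myog had the highest mean of the list, 32298 scaled counts. The ETS factor gene Gabpa had a mean of 3585.2.

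In the list of genes known to rise when muscle loses its nerve, 12 of 12 were tested and none passed. It holds Chrna1, Chrng and Musk. The ubiquitin ligase gene Trim63 was at 534 and 538 (wt), 652 and 676 (mdx), and 587 and 430 (mdx/Ripk3mKO) (0.31 ± 0.12 in mdx against wt, limma, adjusted p = 0.721). Embryonic myosin Myh3 was the most abundant of the list, with a mean of 138731.8 scaled counts. Over the list 7 of 12 lay below 0 in mdx against wt (median -0.02), as did 50.9% of all genes. In mdx/Ripk3mKO against mdx 8 of 12 lay above 0 (median 0.06), as did 49.2% of all genes. Trim63 was at -0.40 there, -0.63 without mdx/Ripk3mKO library 1 and -0.18 without library 2.

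Genes whose profile over the 6 libraries was nearest to that of the members were found by the root mean square difference between log2 profiles centred on their own means, among 9586 genes with a mean of at least 100 scaled counts. For the mean of the 4 receptor subunits, the nearest included the chaperone gene Dnajc5 (0.008), vinculin (Vcl, 0.0082), Nudt3 (0.0093) and the Golgi stacking gene Gorasp2 (0.011), against a median of 0.0839 over the genes compared. For the mean of all 9 members they were Nedd4l (0.0185), Gusb (0.0185), Smo (0.0202), Zbtb22 (0.0246) and Esd (0.0261). That mean leans on Ache, whose centred values ran from -0.89 to 1.11 at low counts. For the 8 abundant members, a choice made after their values were seen, they were Fxr2 (0.0101), Surf4 (0.0111), Snx1 (0.0116), Ddx24 (0.0122) and Abhd17c (0.0132). Profiles of the subunits spanned 0.16 on the log2 scale and those of the 8 members 0.18, so all these profiles were nearly flat.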

How the data were processed

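RNA of 6 libraries was read from one table. Per the submitters' processing notes, Trimmomatic 0.36, STAR 2.6.1d, featureCounts 1.6.3, DESeq2 1.18.1 and mm10 were used, without the role of each. The deposited values are whole numbers already scaled between libraries by the authors (median-of-ratios size factors differed by at most 0.00039), so no count model applies and their unit is taken as a score. Totals ran from 20611974 to 21037153, depth before scaling is hidden, and strand of counting is not given. Both mdx columns carry one header and are called library 1 and 2 in column order.

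Limma 3.58.1 (R 4.3.3, statmod 1.5.0) was fitted to log2(scaled count + 1) over all 6 libraries, with trend and robust moderation and 3 residual degrees of freedom. Fold changes on this scale understate those of low genes. Tested were the 14077 genes that reached 10 in 2 or more libraries, 438 were left out, and p-values were adjusted by Benjamini-Hochberg over all of them, at a threshold of 0.05. An exact permutation test of 2 against 2 cannot go below 0.333 and was not used. The fit was tested on simulated data.

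Exon lengths came from GENCODE M21. Named were all members, the genes past the threshold or else with the smallest p in each list, and the highest levels. Members and lists were chosen with earlier results of these data known. Some genes that this rule names are not reported here.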

Additional observations from a re-analysis of the deposited data

How the results depend on the processing

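None of the 27 differences of members between groups had a call to lose, and none gained one in 378 alternative estimates. These were read from refits with another pseudocount, filter, scaling, moderation, set of libraries or correction. In 362 the direction was kept, and in 16 it turned. Part of the 362 was fixed in advance. A changed filter, moderation, replicate block or group outside the comparison leaves the difference the same. With a correction for GC content and exon length, chosen after seeing the data, Chrnb1 was at -0.03 and Dok7 at -0.04 in mdx/Ripk3mKO against wt. The other 14 turns came from leaving out a library. In mdx against wt the range was then -0.03 to 0.09 for Chrnb1, -0.10 to 0.03 for Chrnd and -0.09 to 0.02 for Chrng. In mdx/Ripk3mKO against mdx it was -0.76 to 0.49 for Ache and -0.07 to 0.22 for Chrng. In mdx/Ripk3mKO against wt it was -0.06 to 0.06 for Chrnb1, -0.01 to 0.12 for Chrnd, -0.11 to 0.19 for Chrng, -0.02 to 0.04 for Dok7 and -0.15 to 0.08 for Lrp4. The lone library of such a group is assumed to vary like the others.

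The counts of genes past the threshold moved more. In mdx against wt it was 1, 103 with only the 2 groups compared, and 0 to 103 leaving out a library. Between mdx/Ripk3mKO and mdx it was 29, 2 with only the 2 groups compared, 1 without variance trend and robust fitting, 7 after the correction, and 1 to 278 leaving out a library. Between mdx/Ripk3mKO and wt it was 0, and 0 to 20 leaving out a library. With only the 2 groups compared, or without either mdx/Ripk3mKO library, 1 gene each of the agrin, scaffold and transcriptional lists passed in mdx against wt. The cause was not tested. With the replicate block, possible for mdx/Ripk3mKO against wt alone since the mdx columns share a header, 0 genes passed, and same-numbered libraries did not deviate together (correlation -0.01 across genes). Count models were not run, since the values are not counts. No scaling moved the median of all genes by over 0.1.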
